A study of Homo sapiens with 8 samples.

Results

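The ATP-binding cassette (ABC) genes were described here in quiescent and cycling lymphoma cells. They were the genes whose annotated symbol begins with ABC, a subfamily letter from A to G and a digit. Only probe sets with a single gene symbol were used. This rule found 45 genes with 99 probe sets among the 19775 genes named on the arrays. Each gene was represented by its probe set with the highest mean log2 intensity over all 8 arrays. A mean intensity of at least 100 was reached by 19 members, and 26 lay below it. Of the 45 members, 4 are pseudogenes (ABCA11P, ABCA17P, ABCC13 and ABCC6P1). ABCA10 and ABCC6 were not analysed here.

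The cells were of RL, an established human B lymphoid line labelled t(14,18)+, so every result concerns 1 line. In both groups the cells formed multicellular aggregates over 14 days of culture, and the RNA-binding dye pyronin Y was then used to separate them. Pyronin Y dull cells were sorted as quiescent (4 arrays) and pyronin Y bright cells as cycling (4 arrays), so the sort itself selected for RNA content. Whether the 4 samples of a group are separate cultures is not stated in the labels. The p-values then measure the spread among these samples alone, and that spread may be technical. Fewer cells expressing a gene and less of its RNA per cell cannot be told apart in such bulk RNA.

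ABC proteins share a nucleotide-binding domain that binds and hydrolyses ATP. In most of the family this domain is joined to membrane-spanning segments and drives lipids, peptides, haem precursors, bile salts or drugs across a membrane. P-glycoprotein (ABCB1), the ABCC proteins known as MRPs and ABCG2 are studied in blood cancers because they can export anticancer drugs. Members of subfamilies ABCE and ABCF have the ATP-binding domains without the membrane segments and act on ribosomes. ABCE1 splits ribosomes into subunits after termination or stalling and carries iron-sulfur clusters. ABCF1 binds the initiation factor eIF2.

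The arrays were measured as deposited, each scaled by the authors to a trimmed mean intensity of about 500.1. Among the genes tested, array medians of log2 values lay close together, from 9.39 to 9.52. The medians of all probe sets differed, at 6.34 ± 0.19 (SD, n = 4) on cycling and 6.76 ± 0.06 (SD, n = 4) on quiescent arrays. Centring the arrays on those medians shifts every log2 difference by −0.41, and the median difference of all genes was 0.08 as deposited, −0.33 centred and −0.04 after quantile normalization. The proliferation genes MKI67, TOP2A, PCNA and CCNB1 were all lower in quiescent cells, with MKI67 falling from 1899.5 ± 388 to 362 ± 188 (SD, n = 4 each). The 5 measured B cell markers, MS4A1, CD79A, CD79B, CD22 and PAX5, had intensities from 1660.5 to 26572 and none was called as deposited. None was called after quantile normalization either, but 4 of the 5 were called lower with centred arrays, where 32.5% of all genes were. Summed intensities of the 5 T and NK cell markers were 350.8 to 464 on cycling and 200 to 470.5 on quiescent arrays. They were 130 to 408 and 124 to 263 for the 4 monocyte and macrophage markers, and 519 to 856 and 768 to 1200.4 for the 5 fibroblast and endothelial markers. HBB, the erythroid marker measured, lay at 76.1 to 242 and 141 to 230.0. Only 2 of the T and NK cell markers, 3 of the fibroblast and endothelial markers and HBB passed the filter on dim values and were tested. None of those was called as deposited, the remaining markers could not be called, and no marker list was at 0. PECAM1 had a log2 difference of 0.86 (limma adjusted p = 0.0572) and was called with the mean of its probe sets (adjusted p = 0.0118). CD3G, which was left out, had −2.12 without the filter (limma adjusted p = 0.0503). RNA quality also differed between the groups, in 3 of 4 log2 ratios of 3′ over 5′ or middle control probe sets. That of ACTB 3′ over 5′ was 2.02 ± 0.20 for the cycling and 2.57 ± 0.18 for the quiescent group (SD, n = 4 each). ACTB 3′ over middle (0.82 and 1.13) and GAPDH 3′ over 5′ (−0.05 and 0.11) were higher in the quiescent group too. For each of these 3, two-sided exact permutation gave p = 0.0286, the smallest possible, and 0.0357 adjusted over 5 array measures. GAPDH 3′ over middle differed by 0.0041 (exact permutation p = 0.914). The part of RNA quality in the results below was not tested. Cycling sample 2 lay closest of the cycling arrays to the quiescent ones, with a mean correlation of 0.945 against 0.913 to 0.932 over the genes tested.

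Of the 45 members, 18 passed the filter on dim values and were tested. At an adjusted p under 0.05, 4 were lower in quiescent cells (ABCE1, ABCF1, ABCF2 and ABCD3) and 4 were higher (ABCD4, ABCA7, ABCB6 and ABCC3), by limma with Benjamini-Hochberg adjustment over 11678 genes. ABCC3 passed the filter only through its quiescent arrays, so its call is a description and supports nothing. Of all genes tested, 27.7% were called in either direction, 12.2% as higher and 15.4% as lower. Counting ABCC3, the share of ABC members called was above this background. That is a description, and 18 genes are too few to call it particular to the family. The median log2 difference of the 18 members was 0.01, beside 0.08 for all genes tested. The groups' arrays did not overlap for 5 of the 18 members, 2 of them higher and 3 lower in quiescent cells, with ABCC3 among the 2 higher. The shares among all genes tested were 28.6%, 13.3% and 15.4%. The direction of the calls depended on the scaling. With centred arrays 6 members were lower and none of the 18 higher at that adjusted p, and with quantile normalization 4 were lower and 1 higher at the same threshold. Of all genes tested, 35.3% were called with centred arrays, 2.8% as higher and 32.5% as lower. With quantile normalization it was 26.9%, with 10.5% higher and 16.4% lower. Under all 3 scalings, ABCE1, ABCF1 and ABCF2 were called lower and no member was called higher. In all 8 called members, cycling sample 2 was the cycling array nearest to the quiescent mean.

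**Figure D1:**
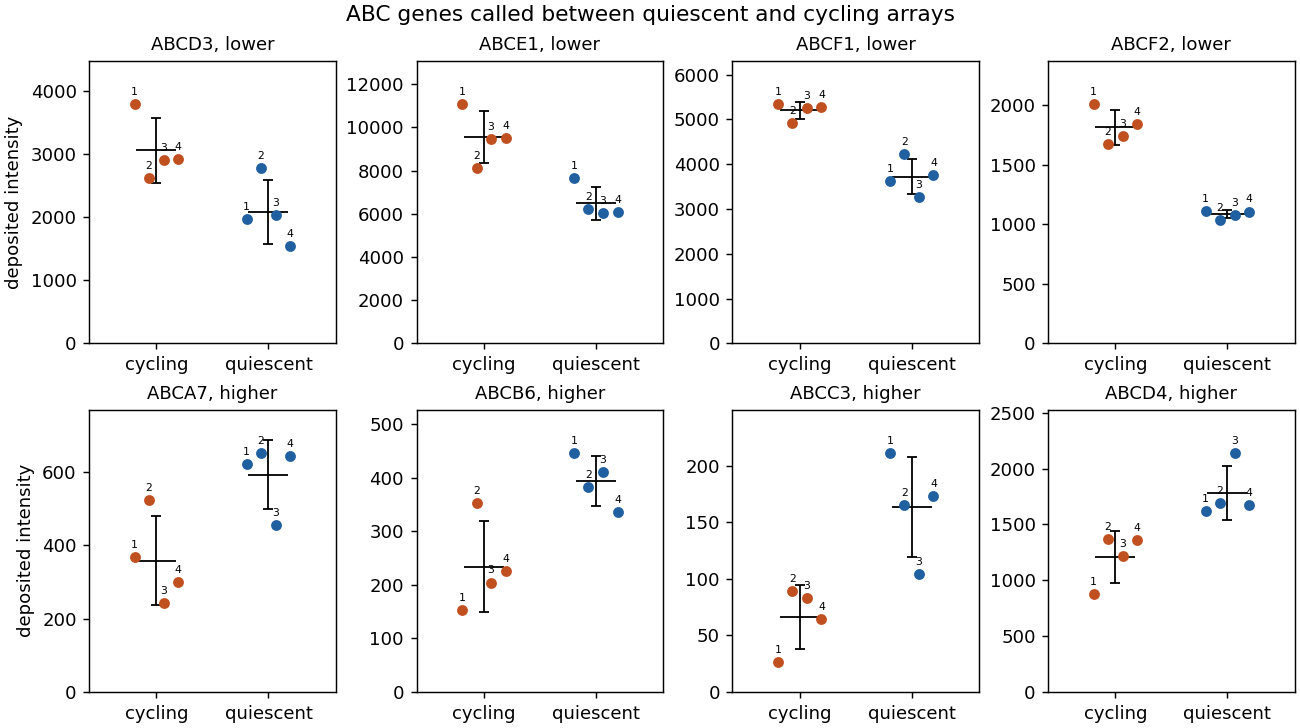
Deposited intensity (linear axis from 0) of the 8 called ABC genes on each array, with cycling arrays in orange, quiescent arrays in blue, sample numbers beside the points, and bars for mean ± SD (n = 4). The groups do not overlap for ABCE1, ABCF1, ABCF2, ABCD4 and ABCC3, and they overlap for ABCD3, ABCA7 and ABCB6.

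The ribosome-linked members ABCE1, ABCF1 and ABCF2 fell in quiescent cells, by 1.40-fold to 1.67-fold, whereas ABCF3 was not called. ABCE1, the ribosome recycling factor, measured 11071, 8123, 9458 and 9489 on cycling samples 1 to 4 and 7631, 6220.2, 6037 and 6077 on quiescent samples 1 to 4. The lowest cycling array was above the highest quiescent array. Its log2 difference was −0.55 (SE 0.12, limma adjusted p = 0.00529), and −0.97 centred and −0.42 after quantile normalization, each also called. Its other probe set also fell, by 0.69 on the log2 scale (SE 0.14, limma adjusted p over all probe sets 0.00379). ABCF1, the eIF2-binding member, measured 5341, 4925, 5262 and 5272 on cycling and 3622, 4221, 3271 and 3762 on quiescent arrays. These groups did not overlap either, and the 4 cycling values lay within a narrow range. Expressed in log2 units it fell by 0.49 (SE 0.11, limma adjusted p = 0.00697), −0.90 centred and −0.38 after quantile normalization.

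ABCF2, whose yeast relative takes part in making ribosomes, also fell. It measured 2009, 1672, 1738 and 1845 on cycling and 1115, 1036, 1081 and 1107 on quiescent arrays. The quiescent arrays were close to each other, at 1085 ± 35.7 (SD, n = 4), and all lay below the cycling ones. On the log2 scale the difference was −0.74 (SE 0.12, limma adjusted p = 0.000898), −1.15 centred and −0.72 after quantile normalization. The 5 ABCF2 probe sets did not move alike. The next brightest also fell, by 0.64 on the log2 scale (limma adjusted p over all probe sets 0.00755). The other 3 were not called, with log2 differences of −0.57, −0.11 and 0.60, and the mean of all 5 was not called either (−0.29, limma adjusted p = 0.195). ABCF3, related to a yeast cofactor of the eIF2 kinase Gcn2, measured 850.2, 635, 630.2 and 735 on cycling and 808, 699, 713 and 658 on quiescent arrays. Its groups overlapped, with a log2 difference of 0.02 (95% interval −0.32 to 0.36, limma adjusted p = 0.936), −0.39 centred and −0.05 after quantile normalization. The calls for ABCE1, ABCF1 and ABCF2 held without each array in turn.

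The 250 bases before the annotated start of these 4 genes, and of ABCB6, a member that was higher in quiescent cells, are shown because the ribosome-linked genes moved in part together. They come from RefSeq on build GRCh38.p14, and the table held 14 of the 18 members tested. Each line reads 5′ to 3′ along the gene's strand. Capitals mark 4 motifs searched on both strands, which are the E-box CACGTG, the cyclic AMP response element TGACGTCA, the forkhead-type TGTTTAC and the CCAAT box.
ABCE1, chr4:145098061-145098310, plus strand: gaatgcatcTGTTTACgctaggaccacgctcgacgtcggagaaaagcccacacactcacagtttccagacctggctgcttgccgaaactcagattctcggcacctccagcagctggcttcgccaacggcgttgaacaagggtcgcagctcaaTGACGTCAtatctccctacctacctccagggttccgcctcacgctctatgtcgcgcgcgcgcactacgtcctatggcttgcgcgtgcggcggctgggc
ABCF1, chr6:30571192-30571441, plus strand: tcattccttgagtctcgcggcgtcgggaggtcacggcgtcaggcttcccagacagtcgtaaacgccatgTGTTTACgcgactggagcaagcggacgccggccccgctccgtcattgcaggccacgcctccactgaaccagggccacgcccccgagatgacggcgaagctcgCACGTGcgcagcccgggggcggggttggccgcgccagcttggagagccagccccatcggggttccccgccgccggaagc
ABCF2, chr7:151227206-151227455, minus strand: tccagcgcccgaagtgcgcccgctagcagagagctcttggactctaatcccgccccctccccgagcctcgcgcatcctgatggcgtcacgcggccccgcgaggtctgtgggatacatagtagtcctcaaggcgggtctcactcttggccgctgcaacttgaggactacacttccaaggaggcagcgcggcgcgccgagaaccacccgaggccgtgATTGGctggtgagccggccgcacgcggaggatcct
ABCF3, chr3:184185949-184186198, plus strand: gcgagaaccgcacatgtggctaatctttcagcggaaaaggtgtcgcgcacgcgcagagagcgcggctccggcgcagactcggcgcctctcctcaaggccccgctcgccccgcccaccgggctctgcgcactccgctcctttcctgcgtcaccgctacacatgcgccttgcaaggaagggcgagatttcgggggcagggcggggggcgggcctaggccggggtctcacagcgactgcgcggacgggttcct
ABCB6, chr2:219218959-219219208, minus strand: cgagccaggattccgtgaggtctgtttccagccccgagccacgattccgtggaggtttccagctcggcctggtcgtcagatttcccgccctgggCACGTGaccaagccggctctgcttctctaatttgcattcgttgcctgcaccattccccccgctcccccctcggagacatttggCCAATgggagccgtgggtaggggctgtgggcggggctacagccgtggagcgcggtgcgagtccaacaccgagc
ABCE1 held TGACGTCA, whose first base lies 98 bases before the start, a motif found in 1.65% of all 35116 such windows. Both ABCE1 and ABCF1 held TGTTTAC, 241 and 181 bases before the start, which 2.98% of windows hold. ABCF1 held CACGTG 79 bases before the start, but so did ABCB6, at 156 bases, and CACGTG was in 6.34% of windows. ABCF2 and ABCB6 held a CCAAT box, found in 32.01% of windows, and ABCF3 held none of the 4 motifs. No motif was thus shared by the 3 members that fell. These matches describe letters in the window and no binding was measured.

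Genes that work with the ribosome-linked members were given by lists. Of 11 tested genes for termination, recycling and quality control around ABCE1, 5 were lower and 1 was higher in quiescent cells, beside 15.4% and 12.2% of all genes tested, with a median log2 difference of −0.32. ETF1, the release factor eRF1, measured 4038, 4771, 4609 and 4943 on cycling and 2403, 3016, 2339.8 and 2145 on quiescent arrays, without overlap. It fell by 0.90 on the log2 scale (SE 0.13, limma adjusted p = 0.00041). EIF3J, a subunit linked to eIF3 that acts with ABCE1 in subunit splitting, fell by 0.94, and GSPT1, the release factor eRF3a, fell by 0.58. The mean of all GSPT1 probe sets turned the direction and was not called (0.14, limma adjusted p = 0.448). GSPT2, the eRF3b paralog of GSPT1, went the other way, from 734 ± 192 to 1240.4 ± 269 (SD, n = 4 each; log2 difference 0.77, limma adjusted p = 0.015, and not called when centred or without cycling or quiescent sample 3). Of the rescue factors that act with ABCE1 on stalled ribosomes, HBS1L fell by 0.36 (limma adjusted p = 0.0463) and PELO was not called (−0.32, adjusted p = 0.337). The HBS1L call was lost after quantile normalization, without the filter, and without cycling sample 1 or 3 or quiescent sample 2, 3 or 4 (limma adjusted p = 0.0716 to 0.15), and the mean of its probe sets turned the direction (0.22, adjusted p = 0.49). With centred arrays 7 of these 11 were lower and none higher, where 32.5% and 2.8% of all genes were. With quantile normalization 3 were lower and 1 higher, beside 16.4% and 10.5% of all genes.

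Of 7 tested genes around eIF2 and the ABCF proteins, 4 were lower and none higher, beside 15.4% and 12.2% of all genes tested, with a median log2 difference of −0.41. EIF2S1, the alpha subunit of eIF2, measured 6169, 4729.6, 6578 and 4866 on cycling and 2579, 2881, 1999 and 1962 on quiescent arrays. It fell by 1.25 (SE 0.16, limma adjusted p = 0.000159), and DRG1, a GTPase that acts on translating ribosomes, and RWDD1 fell by 0.79 and 0.47. With the mean of probe sets EIF2S1 fell by 0.47 and RWDD1 was not called (−0.34, limma adjusted p = 0.464). RWDD1 was also not called without cycling sample 1 or quiescent sample 3 or 4 (limma adjusted p = 0.0524 to 0.0638). Of 11 tested iron-sulfur assembly genes, which serve proteins such as ABCE1, 4 were lower and none higher, against the same shares. NFS1, the cysteine desulfurase, fell by 1.03, CIAPIN1 of the cytosolic pathway by 0.98 and LYRM4, a partner of NFS1, by 0.90. With the mean of its probe sets CIAPIN1 fell by 0.63. Centred, 5 and 6 of these 2 lists were lower, where 32.5% of all genes were, and after quantile normalization 4 and 5, where 16.4% were.

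Of the 9 drug efflux transporters, 5 were tested. ABCC1, ABCC10, ABCC5 and ABCC4 were not called, and ABCC3 passed the threshold upward from dim values. Since only 27.7% of all genes tested were called in either direction, most genes were not called either. The median log2 difference of these 5 members was 0.01, beside 0.08 for all genes tested. ABCC1 (MRP1), which exports glutathione conjugates and anthracyclines, measured 652, 815, 744 and 678 on cycling and 639, 923, 694 and 678 on quiescent arrays. ABCC1 thus had a log2 difference of 0.01 (95% interval −0.34 to 0.37, limma adjusted p = 0.963), and −0.40 centred and −0.06 after quantile normalization, neither called. Its second probe set gave 0.04. The interval leaves out the point estimates of ABCE1, ABCF1 and ABCF2 in the deposited scaling. It overlaps the 95% intervals of ABCE1 (−0.82 to −0.29) and ABCF1 (−0.74 to −0.24), but not that of ABCF2 (−1.01 to −0.47). A difference between ABCC1 and these genes was not tested.

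ABCC10 (MRP7), linked to export of taxanes, measured 400.3, 551, 390.0 and 607 on cycling and 502, 589, 471 and 471 on quiescent arrays, with a log2 difference of 0.08 (95% interval −0.33 to 0.50). ABCC5 (MRP5), an exporter of cyclic nucleotides, measured 371, 356, 399 and 533 on cycling and 318, 375, 549 and 444 on quiescent arrays, a difference of 0.01 (−0.45 to 0.47). The groups overlapped for both. Both differences turned negative when centred (−0.33 and −0.40) and after quantile normalization (−0.07 and −0.16), without being called. The second ABCC10 probe set gave 0.36 (limma adjusted p over all probe sets 0.28). The ABCC5 probe sets differed from each other, since another that passed the filter differed by −0.81 on the log2 scale (adjusted p = 0.0594 in limma over all probe sets). A dimmer ABCC5 probe set that did not pass differed by −0.80, so the value near 0 rests on the probe set chosen. ABCC4 (MRP4), which also exports cyclic nucleotides and nucleotide analogs, measured 253, 325, 210.3 and 287 on cycling and 175, 193, 219 and 209 on quiescent arrays. It was not called as deposited (−0.42, SE 0.22, 95% interval −0.90 to 0.05, limma adjusted p = 0.172). It was called lower when centred (−0.83, adjusted p = 0.00804) and after quantile normalization (−0.74, adjusted p = 0.0172).

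ABCC3 (MRP3), an exporter of bile salts and glucuronides, passed the filter of 83.3 only through its quiescent arrays, with means of 65.9 ± 28.4 on cycling and 163 ± 44.5 on quiescent arrays (SD, n = 4 each). Such a gene had to differ, so its values are a description. It measured 26.5, 89.5, 83.3 and 64.4 on cycling and 211, 165, 104 and 173 on quiescent arrays, so the cycling arrays all lay under 100. The log2 difference was 1.41 (SE 0.44, limma adjusted p = 0.0293), and 0.99 centred (adjusted p = 0.0766) and 1.00 after quantile normalization (adjusted p = 0.0933), not called. It was not called without cycling sample 1 or 4 or quiescent sample 1, 2 or 4 (adjusted p = 0.0536 to 0.0741). The probe set carries the suffix for possible cross-hybridisation, its 4 other probe sets did not pass the filter, and the mean of all 5 was not called (0.57, limma adjusted p = 0.137).

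The transporters best known from resistant tumours were dim. ABCB1, P-glycoprotein, measured 20.9, 26.2, 52.6 and 42.9 on cycling and 61.7, 43.2, 34.7 and 76.4 on quiescent arrays. ABCG2, the breast cancer resistance protein, measured 36.7, 22.9, 85.5 and 33.8 on cycling and 97.8, 88.2, 69.1 and 19.5 on quiescent arrays. The groups overlapped for both. ABCC2 (MRP2) ranged from 6.26 to 45.3 and ABCC11 (MRP8) from 13.7 to 108. Fitted without the filter, these 4 had log2 differences of 0.63 (ABCB1), 0.56 (ABCG2), −0.88 (ABCC2) and −1.06 (ABCC11), with SE of 0.52 to 0.71 and none called. Detection calls were not used here, so such values cannot be told from background, and a change in these 4 was not detectable at this intensity. A further probe set is annotated to both ABCB4 and ABCB1 and was left out by the rule.

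**Figure D2:**
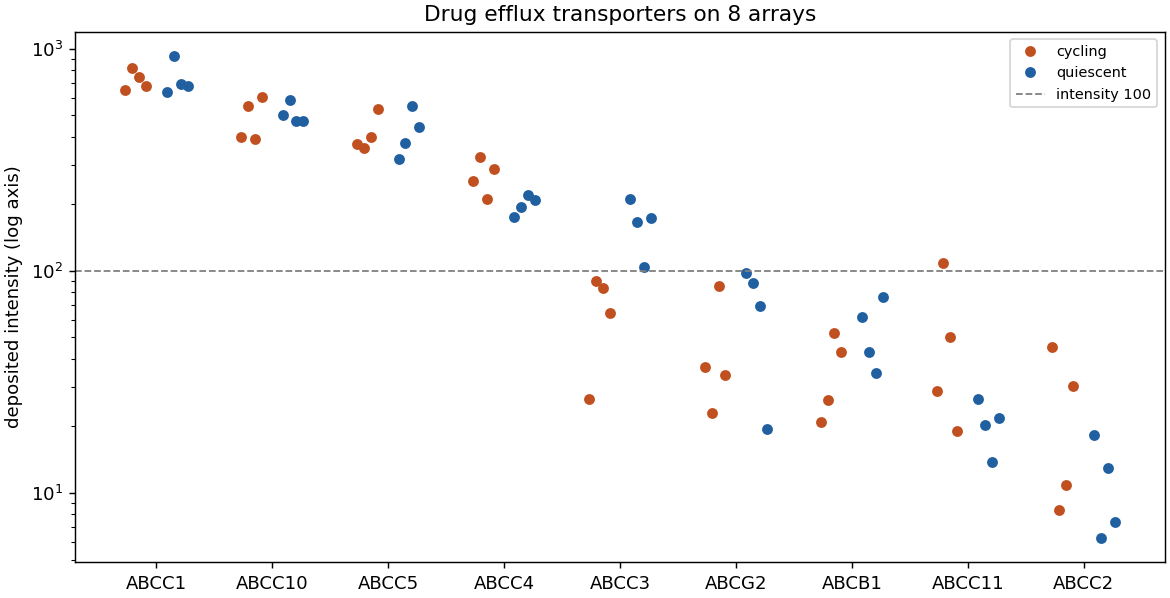
Deposited intensity (log axis) of the 9 drug efflux transporters on 4 cycling (orange) and 4 quiescent (blue) arrays, with a dashed line at 100. ABCC1, ABCC10, ABCC5 and ABCC4 overlap between groups, ABCC3 is higher on quiescent arrays, and ABCG2, ABCB1, ABCC11 and ABCC2 lie almost wholly under 100.

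The log2 ratio of probe sets within each array, which array centring cannot alter, sets the ribosome-linked genes beside the efflux genes. These ratios were chosen after the calls had been seen, so they are given as a description with no test. All 4 ribosome-linked members were set over the 4 efflux members ABCC1, ABCC4, ABCC5 and ABCC10, and ABCC3 was left out because its cycling values were dim. These ratios share their genes, and among all single genes tested 28.6% had groups that did not overlap. The groups' arrays were separate for 4 of these 16 ratios. Those were ABCF1 over ABCC1 and over ABCC10, with quiescent minus cycling differences of −0.50 and −0.57, and ABCF2 over the same genes, with −0.75 and −0.82. ABCE1 differed by −0.57 over ABCC1 and by −0.64 over ABCC10, with overlapping groups. Over ABCC5 the differences of these 3 genes ran from −0.50 to −0.75, and over ABCC4 from −0.07 to −0.32, with overlap in each. ABCF3 had differences of 0.0081 over ABCC1, 0.0093 over ABCC5, −0.0617 over ABCC10 and 0.44 over ABCC4, all with overlap. Set over ABCF3, the ribosome-linked member not called, ABCE1, ABCF1 and ABCF2 had differences of −0.57, −0.51 and −0.76, which restate their calls.

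**Figure D3:**
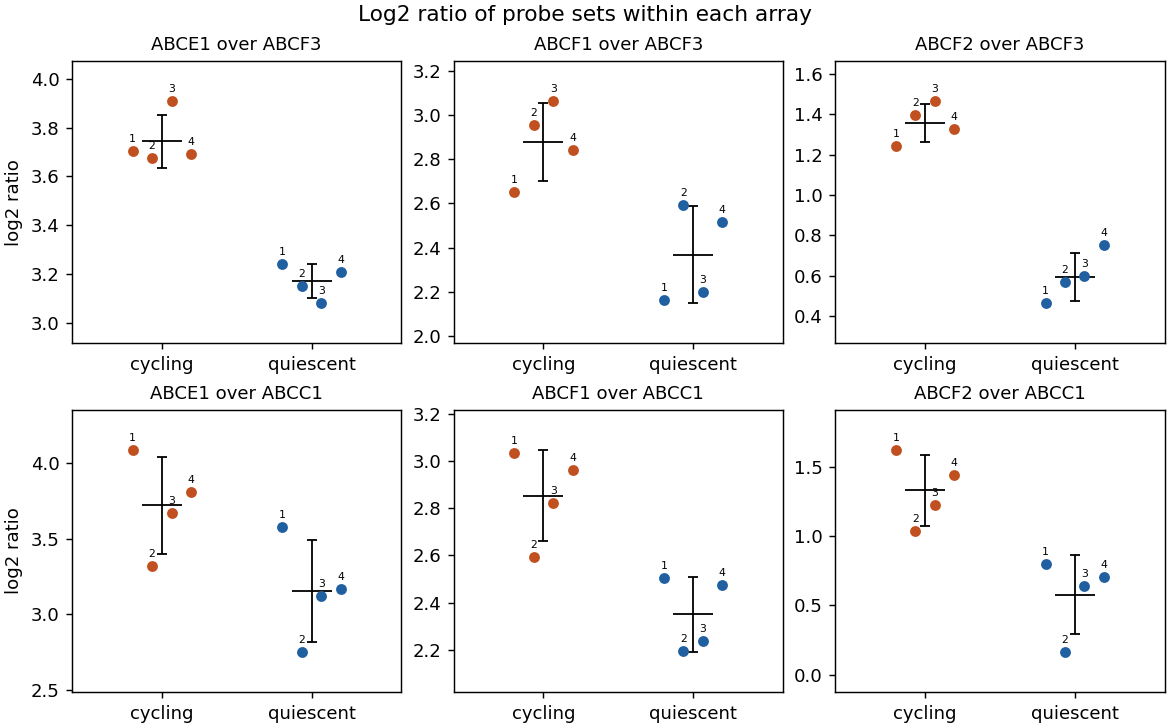
Log2 ratio within each array of ABCE1, ABCF1 and ABCF2 over ABCF3 (upper row) and over ABCC1 (lower row), for 4 cycling (orange) and 4 quiescent (blue) arrays with sample numbers and mean ± SD; the axes do not start at 0. The groups are separate in each panel except ABCE1 over ABCC1.

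The ABCD members moved in opposite directions. ABCD3, the peroxisomal membrane protein PMP70 that imports branched-chain and bile acid precursors, measured 3788, 2612, 2902 and 2919 on cycling and 1976, 2770.3, 2036 and 1541 on quiescent arrays. Quiescent sample 2 lay above cycling sample 2, so the groups overlapped. For ABCD3 the log2 difference was −0.57 (SE 0.18, limma adjusted p = 0.0299), −0.98 centred and called, and −0.50 after quantile normalization and not called (adjusted p = 0.0519). It was also not called by eBayes without trend and robust options (adjusted p = 0.0656) or without cycling sample 1, 3 or 4 or quiescent sample 3 or 4 (adjusted p = 0.0571 to 0.0958). ABCD4, which takes part in releasing cobalamin (vitamin B12) from lysosomes, measured 879.6, 1371, 1213 and 1364 on cycling and 1619.5, 1691, 2142 and 1675 on quiescent arrays, without overlap. It rose by 0.58 (SE 0.17, limma adjusted p = 0.0214) and by 0.59 after quantile normalization, and was not called when centred (0.16, adjusted p = 0.555). Without cycling sample 1 or quiescent sample 3 it was not called (adjusted p = 0.0527 and 0.0758). The second probe sets of ABCD3 and ABCD4 had differences of −0.72 and 0.73 and were not called.

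Within arrays, the log2 ratio of ABCD4 over ABCD3 averaged −1.35 ± 0.52 in the cycling and −0.20 ± 0.39 in the quiescent group (SD, n = 4 each). This difference of 1.15 restates the opposite directions and was not tested. Of 11 tested genes for peroxisome assembly and fatty acid oxidation, 1 was higher and none lower, beside 12.2% and 15.4% of all genes tested, with a median of −0.13. HSD17B4, the bifunctional enzyme of peroxisomal beta-oxidation, rose by 0.46 (SE 0.11, limma adjusted p = 0.00937), from 6480.5 ± 394 to 8923 ± 1109, and by 1.28 with the mean of its probe sets. It was not called when centred, where 7 of the 11 were lower beside 32.5% of all genes.

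Of the transporters of mitochondria and endolysosomes, ABCB6, which handles porphyrins, was called higher. It measured 153, 354, 205 and 227 on cycling and 447, 383, 411 and 336 on quiescent arrays, and only cycling sample 2 reached the quiescent range. The log2 difference was 0.81 (SE 0.25, limma adjusted p = 0.0291). The call did not hold when centred (0.40), after quantile normalization (0.55, adjusted p = 0.0977), without the filter (adjusted p = 0.0508), with the mean of its probe sets (0.52, adjusted p = 0.301) or without cycling sample 1, 3 or 4 or quiescent sample 1, 2 or 3 (adjusted p = 0.0522 to 0.0773). ABCB10, a mitochondrial inner membrane protein linked to haem synthesis, measured 964, 734, 579 and 752 on cycling and 595, 844, 661 and 539 on quiescent arrays. It was not called (−0.20, 95% interval −0.62 to 0.22, limma adjusted p = 0.483), but was called lower when centred (−0.61, adjusted p = 0.0325). ABCB8, also of the mitochondrial inner membrane, measured 168, 240.4, 197 and 128 on cycling and 163, 231, 125 and 204 on quiescent arrays (−0.02, 95% interval −0.64 to 0.60). The ABCB8 groups covered almost the same range.

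Among the lipid transporters, ABCA7, a phospholipid transporter known from Alzheimer's disease genetics, rose. It measured 368, 524, 243 and 299 on cycling and 622, 653, 454 and 644 on quiescent arrays. Cycling sample 2 exceeded quiescent sample 3, the overlap between the groups. The log2 difference was 0.77 (SE 0.24, limma adjusted p = 0.0279), 0.36 centred (adjusted p = 0.202) and 0.59 after quantile normalization (adjusted p = 0.0592), not called in either. It was not called without cycling sample 3 or 4 or quiescent sample 1, 2 or 4 (adjusted p = 0.0505 to 0.0876). ABCA1, which passes cholesterol to apolipoprotein A-I, measured 234, 654, 296 and 408 on cycling and 479, 875, 583 and 741 on quiescent arrays. The highest cycling value came from sample 2, as did the highest quiescent value. ABCA1 had a log2 difference of 0.82 (SE 0.29) and just missed the threshold (adjusted p = 0.0533 in limma). It was called with the filter at the 75th percentile (adjusted p = 0.0404), with 32 added before log2 (adjusted p = 0.0499), and without cycling sample 2 (adjusted p = 0.00735) or quiescent sample 1 (adjusted p = 0.0309). With the sample number as a block ABCA1 was also called (limma adjusted p = 0.00206). Over its alternatives without the block, adjusted p ran up to 0.228, and its second bright probe set gave 0.80 (limma adjusted p over all probe sets 0.0634).

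ABCG1, which loads cholesterol onto HDL, measured 134, 201, 137 and 118 on cycling and 157, 177, 172 and 172 on quiescent arrays (0.23, 95% interval −0.34 to 0.80, limma adjusted p = 0.548; −0.18 centred and −0.15 after quantile normalization). ABCA2, an endolysosomal lipid transporter, had a mean of 102 but ranged from 6.79 to 163 and did not pass the filter on mean log2. ABCA11P, a transcribed pseudogene, had means of 347 ± 38.9 in the cycling and 312 ± 50.9 in the quiescent group (SD, n = 4 each) and was not called (log2 difference −0.16). Of 9 tested genes of sterol sensing and intracellular cholesterol transport, 1 was higher and none lower, against the same 12.2% and 15.4%, with a median of 0.26. It was NPC2, the lysosomal cholesterol carrier, which rose from 2989.5 ± 291 to 5187 ± 670.1 (log2 difference 0.79, limma adjusted p = 0.000758) and was not called when centred. NR1H3, the sterol-sensing receptor LXR alpha, which drives ABCA1 and ABCG1, was not called (0.31).

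**Figure D4:**
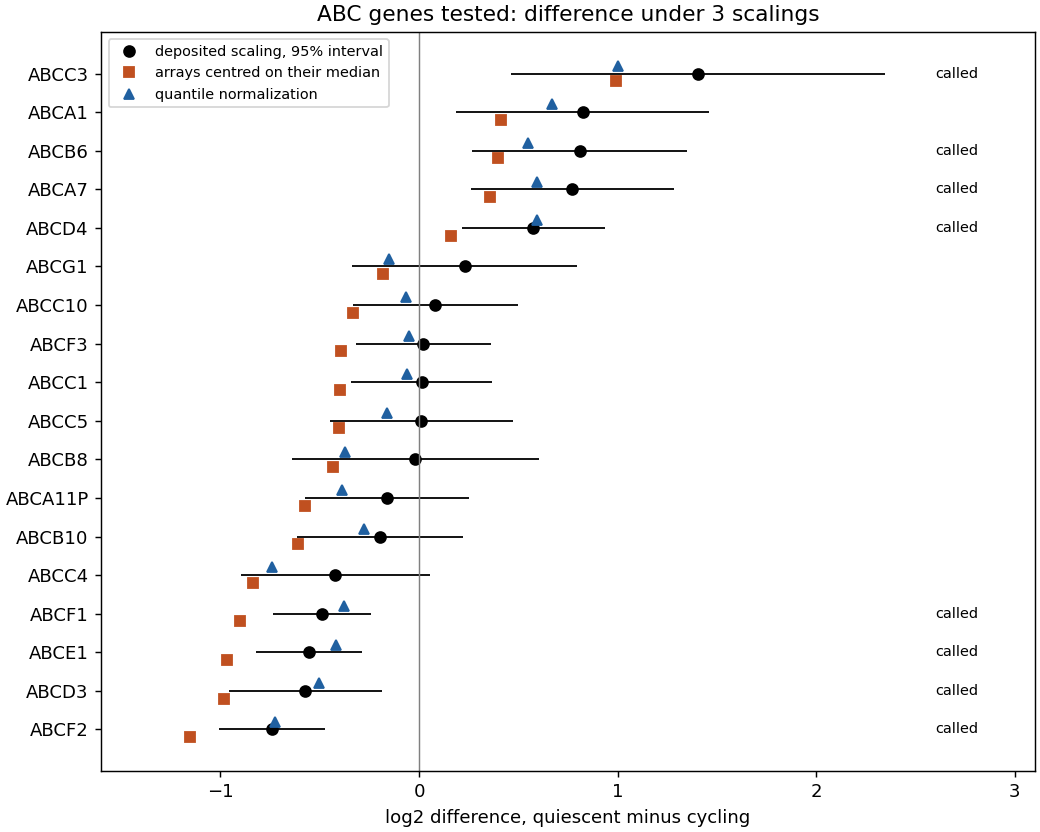
Log2 difference (quiescent minus cycling) of the 18 ABC genes tested, with the deposited scaling as black points and 95% intervals, centred arrays as orange squares and quantile normalization as blue triangles; genes called in the deposited scaling are marked. ABCE1, ABCF1 and ABCF2 are below 0 in all 3 scalings, and the drug efflux members ABCC1, ABCC5 and ABCC10 lie near 0 as deposited and below 0 in the other scalings.

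Of the 9 tested genes of drug metabolism and redox control, 1 was higher and 2 were lower, again beside 12.2% and 15.4% of all genes tested, with a median of −0.07. NFE2L2, which encodes the antioxidant factor NRF2, a regulator of several ABCC genes, rose by 0.49 (SE 0.16, limma adjusted p = 0.0325), from 2103 ± 389.8 to 2945 ± 393. Its inhibitor KEAP1 fell by 0.78, from 1654 ± 168 to 965 ± 128 (limma adjusted p = 0.00172), and GCLM, a subunit of the enzyme that starts glutathione synthesis, fell by 0.66 (limma adjusted p = 0.00541). NFE2L2 was not called when centred (0.08), without the filter (limma adjusted p = 0.0532), with the mean of its probe sets (adjusted p = 0.119) or without cycling sample 1 or 3 or quiescent sample 2, 3 or 4 (adjusted p = 0.0617 to 0.0989). KEAP1 and GCLM were lower in all 3 scalings, and GCLM was not called with the mean of its probe sets (−0.47, adjusted p = 0.104).

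The 26 members with a mean under 100 made up 57.8% of the ABC genes, beside 42.4% of all genes on the arrays. They hold 8 of the 11 ABCA lipid transporters found, ABCG4, ABCG5 and ABCG8, the bile salt and phospholipid exporters ABCB11 and ABCB4, and the potassium channel subunits ABCC8 and ABCC9. Their means ran from 11.4 (ABCG5) to 88.0 (ABCB9), and single values from 0.53 to 220.02, with 7 of the 26 reaching 100 on some array. Around the limit of 100, ABCA2 (102) and ABCC3 (115) lay just above, and ABCB9 and ABCG4 (both 88.0) just below. Fitted without the filter, log2 differences of the 26 spread from −1.81 (ABCA12) to 2.58 (ABCA13), and none was called in limma after adjustment. Of all genes fitted without the filter, 14.3% were called, 6.2% as higher and 8.14% as lower. At an unadjusted p under 0.05 in this limma fit there were 2, ABCA13 and ABCG4. On the probe sets chosen, none of the 26 had groups that did not overlap. Among the genes tested the share without overlap was 28.6%, and it was not counted for dim genes alone. Other probe sets of ABCB9 and ABCC12 did not overlap, with log2 differences of 1.02 and 0.75. Neither was called (limma adjusted p over all probe sets without the filter 0.241 and 0.458). Their median SE was 0.64, against 0.19 for the 19 brighter members, so the dim members carried wider errors. ABCA13 measured 0.53 to 13.03 on cycling and 2.43 to 41.5 on quiescent arrays, which is within the range of these dim values.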

How the data were processed

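RNA of 4 quiescent and 4 cycling sorted fractions was hybridised to Affymetrix human arrays, after Trizol extraction and one-cycle biotin labelling from 30 ng of RNA, per the labels' protocols. The deposited values are intensities on a linear scale, made with MAS5 per the submitters' processing notes, with the version not given in the sources used here. All 54675 probe sets, 62 of them controls, were scaled by the authors to a common trimmed mean (2% from each end), as the values show. Precision is limited by the number of arrays.

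Values were floored at an intensity of 1 before log2. No further normalization was used in the main comparison, because the authors had already scaled the values. Centring on array medians, which lie among dim probe sets, gave the genes tested a median difference of −0.33. It was 0.08 as deposited and −0.04 after quantile normalization. Which scaling is right for cells sorted on RNA content was not tested. Gene names came from the array platform's annotation, which can be old. It gave 41091 a single symbol and 1801 several, and 41043 matched RefSeq genes of GRCh38.p14, with 0 symbols changed. Genes whose mean log2 lay under the median of non-control probe sets (intensity 83.3) were left out, which removed 8097 and kept 11678. The test was limma 3.58.1 (lmFit, then eBayes with the trend and robust options; R 4.3.3) on the group alone. P-values were Benjamini-Hochberg adjusted across the genes kept, and a gene was called at an adjusted p under 0.05. Differences are quiescent minus cycling. Intensities are deposited values. The gene test was tried on simulated data. Tables and plots used Python 3.11.15, pandas 2.3.3 and matplotlib 3.10.9.

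Members and gene lists were chosen with earlier results of these data known. Named are all members with a mean of at least 100, the dim drug efflux members, and of each further list at most 3 called genes plus the nearest partners of ABCE1. Other dim members named as range limits, the ratios within arrays and the promoters shown were chosen after values were seen. Alternatives were median centring, quantile normalization, no filter, a filter at the 75th percentile, adding 32 before log2, the sample number as a block, the mean of a gene's probe sets, plain eBayes and leaving out each array.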

Additional observations from a re-analysis of the deposited data

Results flagged for a closer look

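In 3 of 38 groups of 4 arrays, formed by the 19 brighter ABC members in each condition, 1 array stood far from the other 3 relative to the group's whole range. Chance alone gives this in about 5% of groups. Quiescent sample 1 was high for ABCE1, at 7631 against 6037 to 6220.2 on the other quiescent arrays, and still under the lowest cycling array (8123). Quiescent sample 3 was high for ABCD4, at 2142 against 1619.5 to 1691, and low for ABCA7, at 454 against 622 to 653. Without quiescent sample 3, ABCD4 had a log2 difference of 0.48 and was not called (limma adjusted p = 0.0758), whereas ABCA7 had 0.89 (limma adjusted p = 0.0254).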

How the results depend on the processing

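ABCE1 and ABCF1 were called lower under all alternatives tried, and ABCF2 under all but the mean of its probe sets. Among all genes, 327 were higher and 3795 lower after median centring, against 1430 and 1802 as deposited, and leaving out 1 array each gave 945 to 1697 higher and 1419 to 1900 lower. ABC members called higher numbered 4 as deposited, 0 centred, 1 after quantile normalization, 2 with the mean of probe sets and 1 to 5 without 1 array. Members called lower numbered 3 to 4 without 1 array. Drug efflux members called higher numbered 1 as deposited, and 0 centred, after quantile normalization, with the filter at the 75th percentile (ABCC3 is then not tested) and with the mean of probe sets, and 0 to 1 without 1 array. Drug efflux members called lower numbered 0 as deposited, where 1 member had an unadjusted p under 0.05 in limma (ABCC3, higher), and 1 both centred and after quantile normalization. The cause of these changes was not tested.

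Differences near 0 changed sign. Centred and after quantile normalization, ABCC1 had −0.40 and −0.0626, ABCF3 −0.39 and −0.0513, ABCC10 −0.33 and −0.0662, ABCC5 −0.40 and −0.16, and ABCG1 −0.18 and −0.15. With the mean of all probe sets, ABCC5 had −0.53 and ABCB8 0.19. Without 1 array, ABCC1 ranged from −0.10 to 0.074, ABCF3 from −0.036 to 0.11, ABCC10 from −0.0151 to 0.20, ABCC5 from −0.13 to 0.14 and ABCB8 from −0.18 to 0.15. Dim values limit what can be seen: SE of members under 100 ran from 0.49 to 1.01.

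Same-numbered samples of the groups deviated together with correlations of 0.344, 0.196, 0.11 and 0.0361, and not every sample correlated best with its own number. These values do not settle whether equal numbers mark pairs. The main test did not take the numbers as pairs, so calls near the threshold depend on that choice. With the sample number as a replicate block, 2002 genes were higher and 2232 lower, ABCA1 was called (0.82, limma adjusted p = 0.00206) and the other 17 members kept their calls.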

Other observations

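Some ABC proteins carry other symbols and fall outside the rule. TAP1 and TAP2, which carry peptides into the endoplasmic reticulum for MHC class I, were not called. TAP1 measured 640.2 ± 104 on cycling and 731 ± 51.4 on quiescent arrays (SD, n = 4 each; log2 difference 0.20, limma adjusted p = 0.371). TAP2 measured 766 ± 176 and 585 ± 21.9 (log2 difference −0.36, limma adjusted p = 0.178), and was called lower when centred (−0.77, adjusted p = 0.0177). CFTR, the chloride channel of the ABCC subfamily, was dim, at 2.95 to 97.5.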
